A study of Sus scrofa with 6 samples.

Results

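Basement membrane proteins are followed here in cells grown from the auricular (outer ear) cartilage of a pig: laminins, nidogens, collagens IV, VII, XV and XVIII, perlecan, agrin, and the proteins that bind, crosslink or anchor them. The 35 entries of the list were chosen by name and family, and 4 of them by gene model identifier, with earlier results of the comparison below known. Of the entries 33 had a gene model: 24 by symbol, 4 by identifier, and LAMA1, LAMA2, COL4A1, COL7A1 and DAG1 by the protein name in the deposited annotation. LAMA5 and FREM1 were not analysed here. Because LAMA2 has 3 models, the members are 35 of the 19670 gene models in all. A further 17 models match the protein of a member, and their values are given where they bear on it.

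All cells came from 1 pig of 4 months, a cross of Duroc with (Landrace x Large White) that was wild type for PPARD, and were freed from the ear by enzymes. One group was incubated for 24 h with GW0742, which activates the nuclear receptor PPARD, and the other for 24 h with the solvent DMSO alone. Each group has 3 libraries of poly(A) RNA, read on an Ion Proton instrument. The labels do not say that the 3 libraries of a group came from separate cultures, and the p-values therefore speak of the spread among libraries, which may be technical only.

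A basement membrane is a thin sheet of extracellular matrix on which epithelium and endothelium rest and which wraps muscle, fat and Schwann cells. Laminin trimers, each of an alpha, a beta and a gamma chain, and collagen IV trimers form separate networks, and nidogens and the heparan sulfate proteoglycans perlecan and agrin join them. In cartilage, which has no blood vessels, chondrocytes hold several of the same proteins, perlecan among them, in the matrix next to the cell.

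The libraries held between 13133980 and 16913745 estimated reads. Among defining chondrocyte genes, COL2A1 stood at 114 RPKM (reads scaled to library depth and model length) and ACAN at 105 RPKM with DMSO, while MATN1 was near 0, at 1 or 2 reads in each library. COL1A2, a fibroblast collagen, stood at 7108 RPKM. In these bulk cultures, fewer cells of a type and less RNA per cell cannot be told apart.

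The levels with DMSO spanned over 4 orders of magnitude per unit of length. The 6 most abundant member models were those of SPARC, perlecan, COL4A1, COL15A1, SMOC1 and COL4A2. Of the 35 models 6 had a mean over 100 RPKM, 14 were between 10 and 100 RPKM, 5 between 1 and 10 RPKM, and 10 were under 1 RPKM. RPKM is scaled by length, so it is used to set the level of one gene against another, whereas CPM (counts scaled to library depth, with TMM factors) is used to compare libraries for 1 model.

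SPARC (osteonectin, a collagen-binding protein found in basement membranes and in mineralised and wound matrix) stood at 4455, 3686 and 4172 RPKM in the DMSO libraries and at 3211, 3986 and 3680 RPKM with GW0742. Its mean with DMSO was 12.5 times that of the next member, perlecan. Perlecan (HSPG2) stood at 304, 345 and 341 RPKM with DMSO and at 344, 321 and 360 RPKM with GW0742. In both genes the groups overlapped, and the lowest perlecan value of all was in DMSO replicate 1.

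COL4A1, 1 chain of the widespread collagen IV trimer, stood at 225, 261 and 260 RPKM with DMSO and at 280, 287 and 263 RPKM with GW0742. Its partner COL4A2 stood at 122, 138 and 136 RPKM with DMSO and at 152, 153 and 152 RPKM with GW0742. On the RPKM scale no library with GW0742 was below a DMSO library in either chain. COL4A1 was 1.84, 1.89 and 1.91 times COL4A2 in the DMSO libraries and 1.84, 1.88 and 1.73 times with GW0742, so the ratio of the pair overlapped between the groups. The trimer itself holds more alpha-1 than alpha-2 chains.

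COL15A1 (collagen XV, a non-fibrillar collagen that carries chondroitin sulfate and tethers basement membranes to the tissue below) stood at 172, 189 and 188 RPKM with DMSO and at 198, 245 and 193 RPKM with GW0742, GW0742 replicate 2 being the highest. SMOC1, a relative of SPARC that binds calcium, stood at 146, 148 and 132 RPKM with DMSO and at 144, 124 and 151 RPKM with GW0742, and the groups overlapped. In the order by mean DMSO level, SPARC, perlecan, COL4A1, COL15A1 and SMOC1 did not overlap with their neighbours over the 3 DMSO libraries, except that SMOC1 overlapped with COL4A2 below it. This order holds for the member models only. The further models of collagen XV had means of 291, 243, 226, 159 and 45.5 RPKM with DMSO, so the place of collagen XV depends on the model.

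**Figure D1:**
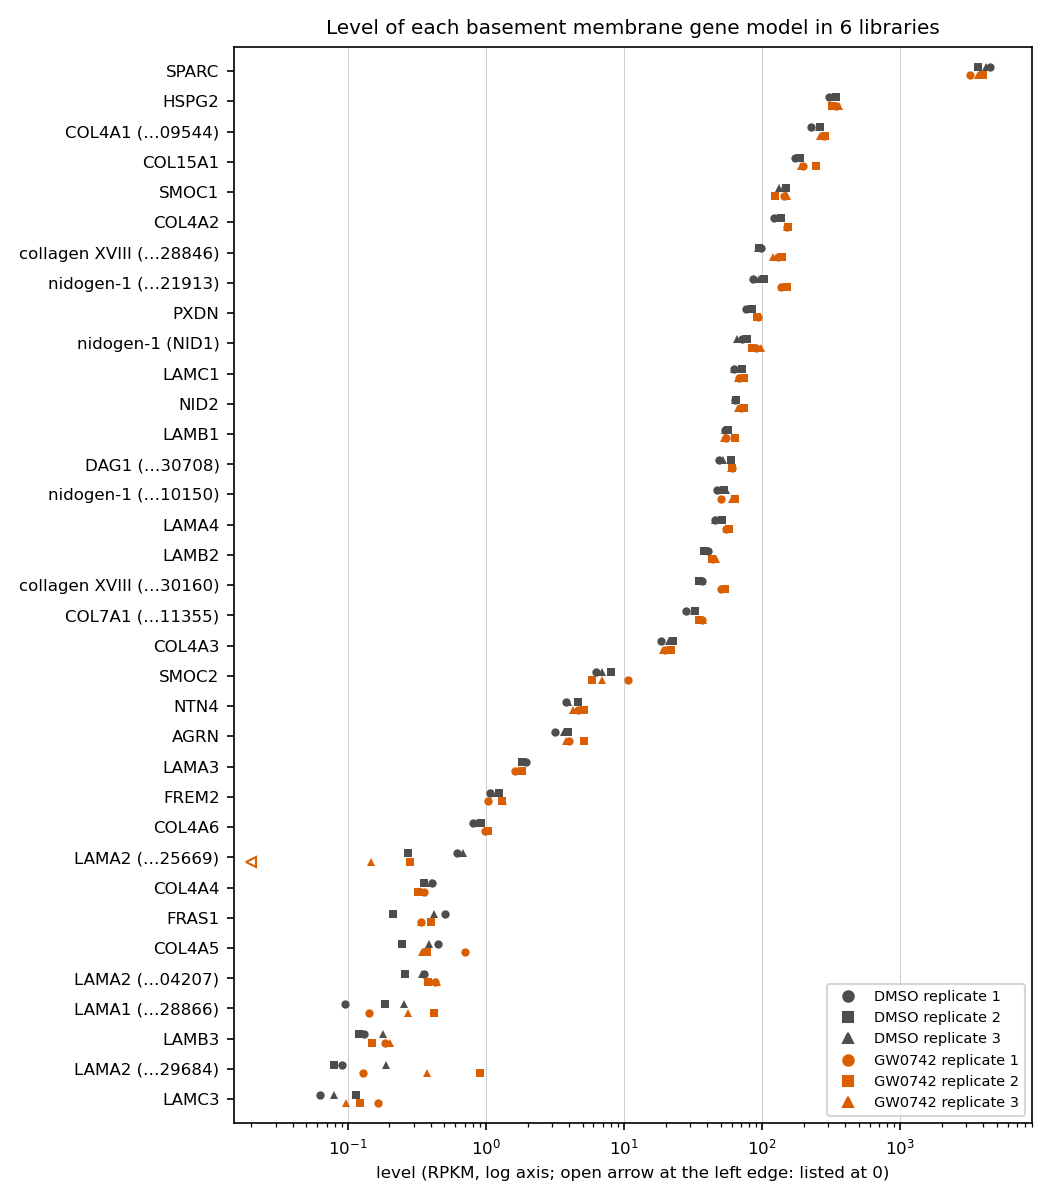
Level of each of the 35 member models in RPKM on a log axis, ordered by the mean of the DMSO libraries, with 1 symbol per library (grey for DMSO, orange for GW0742) and models without a symbol marked by the last digits of their identifier. SPARC stands apart at the top, and the chains LAMA4, LAMB1, LAMB2 and LAMC1 lie between 37.9 and 73.5 RPKM in every library, far above the other laminin chains.

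The laminin chains fell into an abundant and a scarce set. The gamma-1 chain LAMC1 stood at 65.2 ± 5.0 RPKM (SD, n = 3) with DMSO, the beta-1 chain LAMB1 at 54.8 ± 1.4 RPKM, the alpha-4 chain LAMA4 at 47.5 ± 2.9 RPKM and the beta-2 chain LAMB2 at 39.3 ± 1.4 RPKM. Over the DMSO libraries none of these 4 overlapped with another of the 4. These chains can form the alpha-4 laminins, which are found around vessels, fat and muscle cells.

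The other chains were lower by an order of magnitude or more. LAMA3, an alpha chain of epithelial laminins, stood at 1.88 ± 0.06 RPKM with DMSO, and LAMA4 was 25.2 times as high. The 3 models of LAMA2, the alpha chain of muscle and Schwann cell laminin, had means of 0.525, 0.320 and 0.119 RPKM. LAMA1, the alpha chain of the early embryo, had 3, 4 and 7 reads with DMSO and 3, 11 and 7 with GW0742. LAMB3, the beta chain of epithelial laminin, had 5 to 10 reads in each library, and LAMC3 7 to 14 reads. With so few reads a difference between the groups was not detectable in LAMA1 and LAMB3.

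Collagen IV also fell into unequal chains. COL4A3, with 20.7 ± 2.1 RPKM with DMSO, was 53.4 times as high per unit of length as COL4A4, with 0.388 ± 0.030 RPKM, although both belong to the trimer of the kidney glomerulus and the lung. COL4A5 (0.363 RPKM) and COL4A6 (0.865 RPKM) were low too. The COL4A3 model is 2533 bases long and joins 2 transcripts.

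In the middle of the range stood the nidogens, collagen XVIII, peroxidasin and dystroglycan. PXDN (peroxidasin, which crosslinks collagen IV through sulfilimine bonds) stood at 81.1 ± 4.1 RPKM with DMSO, NID2 (nidogen-2) at 64.2 ± 0.5 RPKM, and DAG1 (dystroglycan, a laminin receptor) at 53.6 ± 5.5 RPKM. COL7A1, the anchoring fibril collagen of skin, stood at 31.1 ± 2.4 RPKM. SMOC2 (7.06 RPKM), the netrin NTN4 (4.15 RPKM), agrin (AGRN, 3.58 RPKM) and FREM2 (1.14 RPKM) were lower. FRAS1, which with FREM2 anchors the epidermis to the dermis, was at 0.379 RPKM, but its model joins 7 transcripts and its reads per kilobase came to 0.109, the 1 level of the 35 that moved beyond its spread on that scale.

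With GW0742 both models of collagen XVIII and 1 of the 3 models of nidogen-1 were higher, and no member was lower, at an adjusted p under 0.05. Of 35 models 30 held enough reads to test. Models LAMB3, COL4A5, LAMA1 and 2 of the 3 of LAMA2 did not, and LAMC3 reached the minimum in 1 DMSO library but in all 3 with GW0742, so it entered through the group in which it stood higher. In edgeR 3 of the 30 passed upward, where 0.184% of all tested models did, and 0 passed downward, where 0.0778% did. DESeq2 called 3 higher, the same 3 models, and 0 lower, against 1.46% and 1.65% of all models. At an unadjusted p under 0.05 edgeR had 9 members higher, where 7.93% of all tested models were, and 1 lower, where 8.91% were.

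Because the list was drawn up with this comparison known, and the models that passed are among those listed by identifier, these counts describe the members and are no independent evidence of a direction. The groups did not overlap in 13 members that were higher (11.4% of all tested models) and in 2 that were lower (12.1%). The log2 fold change was above 0 in 25 members and below 0 in 5, with a median of 0.16 and a range from -0.23 (COL4A4) to 0.58 (LAMC3), whereas the median of all models was 0. All 35 models together summed to 9482, 10248 and 10115 CPM with DMSO and to 10243, 10297 and 10479 CPM with GW0742. The sum of GW0742 replicate 1 was below that of DMSO replicate 2. Without the SPARC model the sums were 7324, 8411 and 8063 CPM with DMSO and 8673, 8414 and 8683 CPM with GW0742, narrowly apart.

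**Figure D2:**
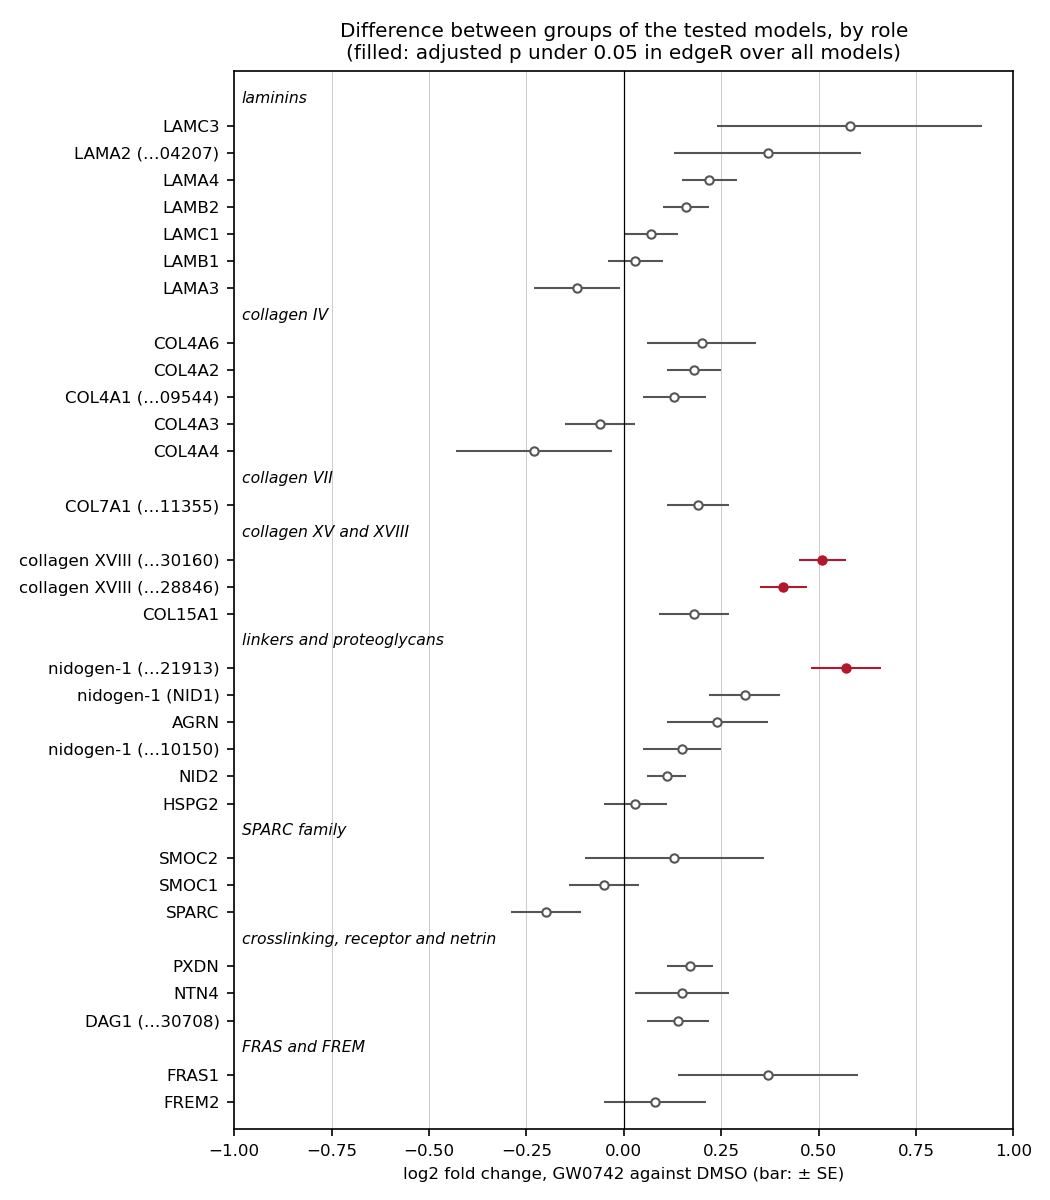
Log2 fold change of GW0742 against DMSO for the 30 tested member models, grouped by role, with bars of ± SE and filled red points for an adjusted p under 0.05 in edgeR over all models. Both collagen XVIII models (0.51 and 0.41) and 1 nidogen-1 model (0.57) are filled, and every other point except that of LAMC3 (0.58) lies between -0.23 and 0.37.

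Collagen XVIII, a heparan sulfate proteoglycan of vascular and epithelial basement membranes whose cleaved end is endostatin, rose in both of its models. ENSSSCG00000030160 (1104 bases) stood at 43.3, 42.4 and 43.9 CPM with DMSO and at 60.2, 61.7 and 62.5 CPM with GW0742. ENSSSCG00000028846 (1027 bases) stood at 107, 108 and 104 CPM with DMSO and at 143, 148 and 132 CPM with GW0742. In both models every library with GW0742 was above every DMSO library, and the gap was wide against the spread within either group.

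The first model rose by log2 0.51 ± 0.06 (SE; edgeR adjusted p = 0.0222) and the second by log2 0.41 ± 0.06 (edgeR adjusted p = 0.0471). DESeq2 gave adjusted p-values of 1e-05 and 3.04e-05. The second model was 2.67, 2.73 and 2.54 times the first per unit of length in the DMSO libraries and 2.56, 2.58 and 2.28 times with GW0742. Summed into 1 protein, collagen XVIII rose from 149 ± 1.7 to 203 ± 7.3 CPM (log2 0.44 ± 0.06, edgeR adjusted p = 0.0245), and of the 13 proteins with more than 1 model it was the 1 that passed as a sum. The call of ENSSSCG00000030160 was lost without any 1 library other than GW0742 replicate 3, and that of ENSSSCG00000028846 likewise, with adjusted p-values up to 0.139 and 0.208. That of ENSSSCG00000028846 was also lost without the filter (adjusted p = 0.109) and in limma on log2(RPKM + 1) and log2(RPKM + 0.1) (adjusted p = 0.0921 and 0.0976). The log2 values stayed between 0.49 and 0.53 and between 0.38 and 0.45 over the 13 alternatives.

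**Figure D3:**
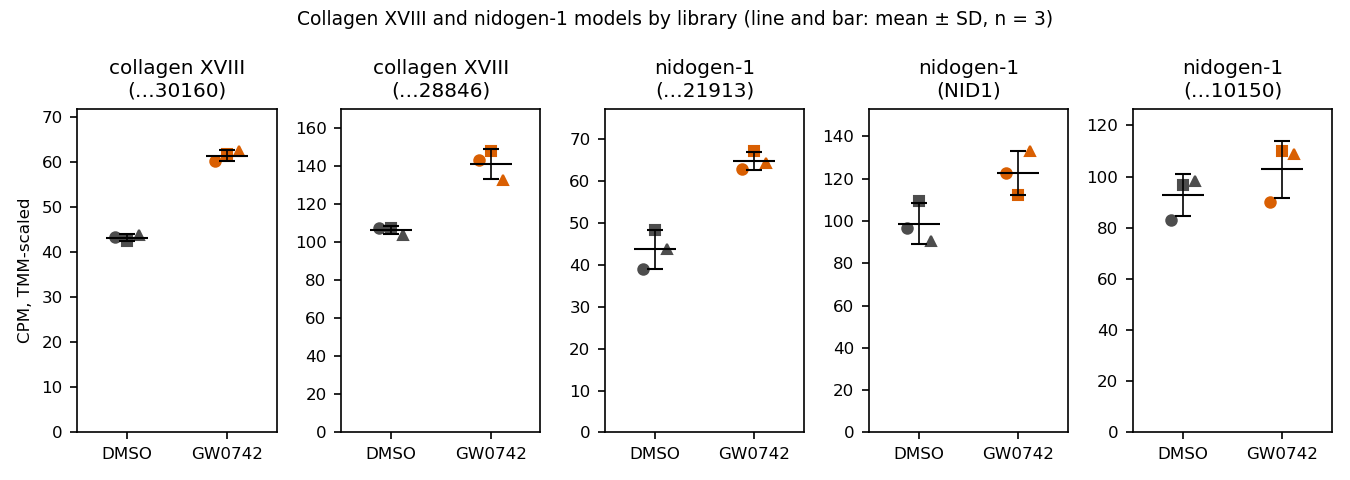
CPM of the models of collagen XVIII and nidogen-1 in each library, on axes that start at 0, with a line and bar for the mean ± SD of 3 libraries. The groups are apart in both collagen XVIII models, in ENSSSCG00000021913 and in NID1, and overlap in ENSSSCG00000010150.

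Nidogen-1, the rod-shaped linker between laminin gamma-1 and collagen IV, is split over 3 models that did not all pass. ENSSSCG00000021913 (441 bases) stood at 39.1, 48.4 and 43.8 CPM with DMSO and at 62.9, 67.2 and 64.3 CPM with GW0742. NID1 (1272 bases) stood at 96.6, 109 and 90.3 CPM with DMSO and at 123, 112 and 133 CPM with GW0742. ENSSSCG00000010150 (1663 bases) stood at 83.2, 96.8 and 98.4 CPM with DMSO and at 90.1, 110 and 109 CPM with GW0742.

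The groups were apart in the shortest model and narrowly so in NID1, and they overlapped in the longest. The shortest rose by log2 0.57 ± 0.09 (edgeR adjusted p = 0.0471; DESeq2 adjusted p = 2.68e-05). The NID1 model had log2 0.31 ± 0.09 (edgeR adjusted p = 0.152; DESeq2 adjusted p = 0.0501) and the longest log2 0.15 ± 0.10 (edgeR adjusted p = 0.471). As a sum nidogen-1 stood at 235 ± 18 and 290 ± 15 CPM (log2 0.30 ± 0.07, edgeR adjusted p = 0.11) and did not pass. Per unit of length the shortest model was 1.20, 1.31 and 1.44 times NID1 with DMSO and 1.52, 1.77 and 1.43 times with GW0742, so this ratio overlapped between the groups and a difference between the models was not tested. The call of ENSSSCG00000021913 was lost without any 1 library other than DMSO replicate 2 (adjusted p up to 0.18). It was lost too without the filter (adjusted p = 0.118) and in both limma fits (adjusted p = 0.0662 and 0.0706). NID2, the other nidogen, stood at 292 ± 6.1 and 314 ± 9.7 CPM (log2 0.11 ± 0.05, edgeR adjusted p = 0.369), with its groups apart.

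The other heparan sulfate proteoglycans did not pass. Perlecan's symbol model had log2 0.03 ± 0.08 (edgeR adjusted p = 0.901). Its 4 further models had log2 values of 0.12, 0.18, 0.09 and -0.04, and the sum over all 5 stood at 4123 ± 383 and 4298 ± 353 CPM (log2 0.06 ± 0.09, edgeR adjusted p = 0.771). The spread between DMSO libraries was wide in perlecan, from 3709 CPM in replicate 1 to 4464 CPM in replicate 2. Agrin, which at the neuromuscular junction clusters acetylcholine receptors, had log2 0.24 ± 0.13 (edgeR adjusted p = 0.395) in its symbol model. The deposited protein match of that model is a neurexin-like protein, while its pathway entry names agrin, so its identity is uncertain. A further model, matched to agrin by protein name, ENSSSCG00000027173, stood at 2.02, 1.73 and 2.10 CPM with DMSO and at 3.52, 3.55 and 2.94 CPM with GW0742. The groups were apart in it, and its log2 value was 0.77 ± 0.21 (edgeR adjusted p = 0.129).

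Among 7 tested laminin models none passed in edgeR or DESeq2, and an unadjusted p under 0.05 was reached by 2 upward and 0 downward (7.93% and 8.91% of all models). LAMA4 stood at 233, 266 and 237 CPM with DMSO and at 283, 287 and 287 CPM with GW0742 (log2 0.22 ± 0.07, edgeR adjusted p = 0.16). A further model of LAMA4, ENSSSCG00000004428, stood at 43.9, 46.3 and 44.2 CPM with DMSO and at 52.5, 53.1 and 53.7 CPM with GW0742 (log2 0.25 ± 0.06, edgeR adjusted p = 0.125). Both models were apart between the groups, and the sum had log2 0.23 ± 0.06 (edgeR adjusted p = 0.143). LAMB2 stood at 212 ± 4.7 and 237 ± 11 CPM (log2 0.16 ± 0.06, edgeR adjusted p = 0.216). The partner chains LAMB1 (log2 0.03 ± 0.07) and LAMC1 (log2 0.07 ± 0.07) overlapped between the groups. LAMA3 had log2 -0.12 ± 0.11, with every GW0742 library below every DMSO library, while its further model (log2 -0.08 ± 0.18) overlapped.

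None of the 5 tested collagen IV models passed in edgeR or DESeq2. COL4A2 stood at 766, 892 and 867 CPM with DMSO and at 963, 936 and 961 CPM with GW0742 (log2 0.18 ± 0.07, edgeR adjusted p = 0.242), with the groups apart. COL4A1 stood at 1181, 1411 and 1385 CPM with DMSO and at 1485, 1469 and 1392 CPM with GW0742 (log2 0.13 ± 0.08, edgeR adjusted p = 0.44), and here GW0742 replicate 3 was below DMSO replicate 2. In both genes DMSO replicate 1 was the lowest library. COL4A6 had log2 0.20 ± 0.14, COL4A3 -0.06 ± 0.09 and COL4A4 -0.23 ± 0.20. COL7A1 stood at 311 ± 28 and 356 ± 18 CPM (log2 0.19 ± 0.08, edgeR adjusted p = 0.261).

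Collagen XV, the near relative of collagen XVIII, is split over 6 models, of which none passed. The COL15A1 model had log2 0.18 ± 0.09 (edgeR adjusted p = 0.354). Of the 5 further models, ENSSSCG00000029421, ENSSSCG00000027204 and ENSSSCG00000029657 had log2 values of 0.24, 0.22 and 0.25 with the groups apart. ENSSSCG00000021524 (0.14) and ENSSSCG00000005381 (-0.14) overlapped. The 6 models summed to 903, 1025 and 1021 CPM with DMSO and to 1028, 1188 and 1135 CPM with GW0742, so the groups were narrowly apart. That sum had log2 0.18 ± 0.08 (edgeR adjusted p = 0.276).

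SPARC's pair of models had log2 values of opposite sign, and neither passed. Its symbol model of 465 bases stood at 2158, 1837 and 2052 CPM with DMSO and at 1570, 1883 and 1796 CPM with GW0742 (log2 -0.20 ± 0.09, edgeR adjusted p = 0.283), and it was the 1 member lower at an unadjusted p under 0.05. The further model of 1111 bases, ENSSSCG00000017083, stood at 5291, 6124 and 5408 CPM with DMSO and at 6155, 5526 and 6702 CPM with GW0742 (log2 0.13 ± 0.09, edgeR adjusted p = 0.498). In both the groups overlapped.

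Among the DMSO libraries the SPARC models ran opposite to each other in CPM. DMSO replicate 1 was the highest DMSO library in the short model and the lowest in the long one. With GW0742 this held in part: replicate 2 was the highest in the short model and the lowest in the long one. GW0742 replicate 1, the lowest in the short model, was not the highest in the long one. The long model was 1.00, 1.37 and 1.08 times the short one per unit of length with DMSO and 1.61, 1.20 and 1.53 times with GW0742. The sum of both stood at 7623 ± 294 and 7878 ± 560 CPM (log2 0.05 ± 0.07, edgeR adjusted p = 0.768). Estimated counts can pass reads between models of 1 protein, and whether they did so here was not tested. SMOC1 had log2 -0.05 ± 0.09 and SMOC2 0.13 ± 0.23, both with overlapping groups. A further model of SMOC2, ENSSSCG00000027112, had 42, 16 and 29 reads with DMSO and 0, 31 and 5 with GW0742. Its log2 value was -1.21 ± 0.80 (edgeR adjusted p = 0.485), and the groups overlapped. Summed over its models, SMOC2 had log2 -0.01 ± 0.18 (edgeR adjusted p = 0.985).

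**Figure D4:**
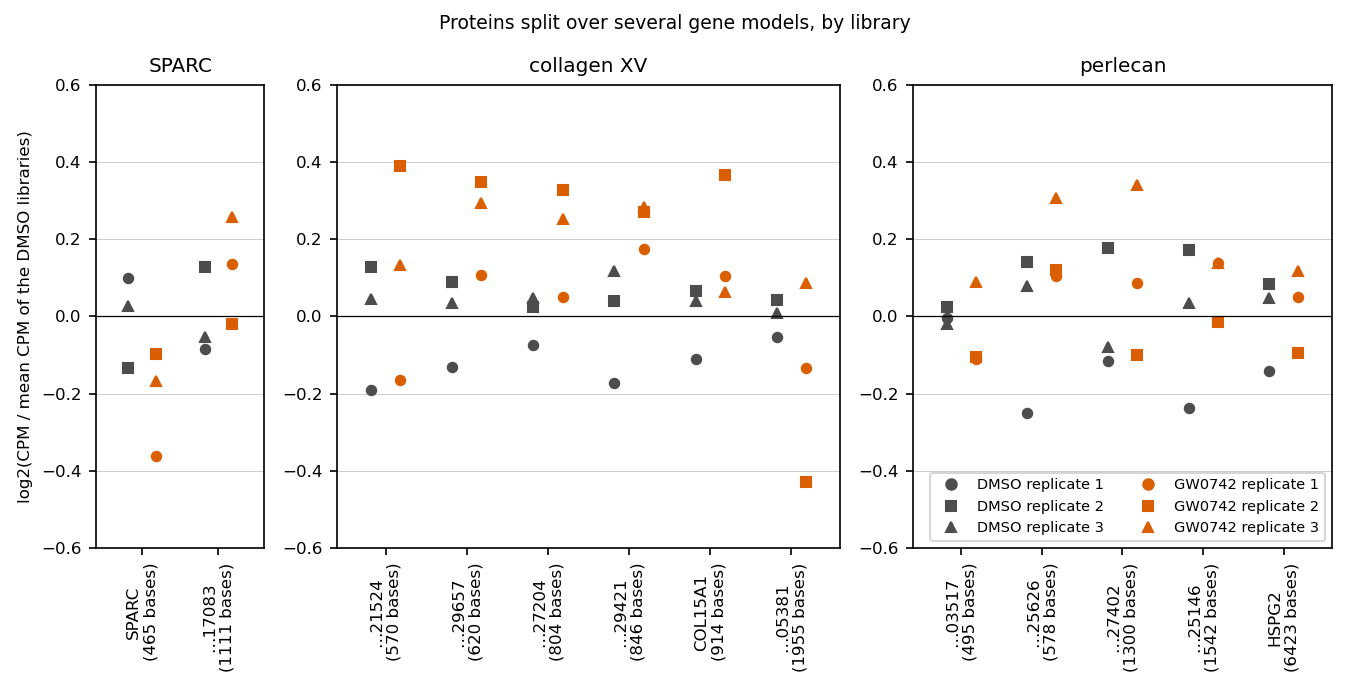
Log2 of CPM over the mean CPM of the DMSO libraries for each model of SPARC, collagen XV and perlecan, ordered by model length, with 1 symbol per library. The short SPARC model lies lower and the long one higher with GW0742 on average, 5 of the 6 collagen XV models have log2 fold changes above 0, and the perlecan models overlap between the groups.

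The crosslinking enzyme PXDN stood at 538, 612 and 581 CPM with DMSO and at 665, 628 and 656 CPM with GW0742 (log2 0.17 ± 0.06, edgeR adjusted p = 0.237), with its groups apart. DAG1 (log2 0.14 ± 0.08) and NTN4, which binds laminin gamma chains (log2 0.15 ± 0.12), overlapped. FRAS1 (log2 0.37 ± 0.23) was apart at 1.42 ± 0.13 and 1.83 ± 0.22 CPM, but its direction turned on the RPKM scale (log2 -0.02 with limma on log2(RPKM + 1)). FREM2 (log2 0.08 ± 0.13) overlapped. None of these 5 passed in edgeR or DESeq2.

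The DMSO libraries did not stand at the same level for the members. DMSO replicate 1 was the lowest of the DMSO libraries in 20 of the 30 tested members (66.7%, against 30.6% of all tested models), and DMSO replicate 2 was the highest in 22 (73.3%, against 41% of all). With GW0742 no library was the lowest in more than 11 of the 30. DMSO replicate 1 was not the lowest DMSO library in either collagen XVIII model. It was the lowest and DMSO replicate 2 the highest in the nidogen-1 model ENSSSCG00000021913, whose log2 value was 0.49 without DMSO replicate 1.

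Genes that act on basement membranes were taken from lists drawn up with earlier results known. Their counts at an unadjusted p under 0.05 stand against 7.93% upward and 8.91% downward of all tested models, and those past the adjusted threshold against the shares given above. Among 14 tested further basement membrane genes 0 passed in either direction in edgeR, and 4 had an unadjusted p under 0.05 upward and 1 downward. COL8A1, a short-chain collagen of vessel walls and corneal endothelium, had the smallest p of that list and the highest mean RPKM with DMSO (275), where it overlapped with FBLN2 (265). In DMSO replicate 1 COL8A1 had 6005 reads over 2235 bases and FBLN2 19058 reads over 4122 bases, at 265 and 255 RPKM. Reads per length therefore put FBLN2 higher, and the most abundant gene of that list depends on the measure. COL8A1 stood at 362 ± 5.5 and 311 ± 11 CPM (log2 -0.22 ± 0.06, edgeR adjusted p = 0.123), and DESeq2 called it lower (adjusted p = 0.0213).

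Among 17 tested receptors 0 passed in edgeR, and an unadjusted p under 0.05 was reached by 3 upward and 2 downward. ITGB4, the beta-4 integrin of hemidesmosomes that binds laminin, stood at 2.73, 3.23 and 2.76 CPM with DMSO and at 5.74, 8.23 and 4.64 CPM with GW0742. Its groups were apart (log2 1.10 ± 0.24, edgeR adjusted p = 0.0978), and DESeq2 called it higher (adjusted p = 0.0185). ITGB1, the common beta-1 integrin and the highest of the list in RPKM, had 1154 ± 77 and 1073 ± 43 CPM (log2 -0.10 ± 0.07, edgeR adjusted p = 0.473). Its deposited RPKM went the other way with the groups apart, at 396, 391 and 386 with DMSO and 480, 475 and 409 with GW0742, so its direction depends on the measure.

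Among 10 tested enzymes of collagen and laminin assembly 0 passed in edgeR, and an unadjusted p under 0.05 was reached by 0 upward and 1 downward. P4HA2, a subunit of the prolyl hydroxylase that stabilises collagen helices, stood at 899 ± 35 and 758 ± 60 CPM (log2 -0.24 ± 0.07, edgeR adjusted p = 0.158), and DESeq2 called it lower (adjusted p = 0.0372). Among 12 tested proteases and inhibitors 0 passed in edgeR, and an unadjusted p under 0.05 was reached by 6 upward and 0 downward. DESeq2 called 4 of them higher, MMP1, MMP9, MMP13 and TIMP1. MMP13, a collagenase, stood at 0.475, 0.526 and 0.540 CPM with DMSO, from 8, 7 and 9 reads, and at 4.90, 8.35 and 1.96 CPM with GW0742 (log2 3.29 ± 0.54, edgeR adjusted p = 0.0609; DESeq2 adjusted p = 9.77e-07). All 3 DMSO libraries lie under the minimum of 10 reads, so MMP13 entered the test through the group in which it stood higher. HTRA1, a serine protease and the highest of the list in RPKM, had 1488 ± 64 and 1424 ± 82 CPM (log2 -0.06 ± 0.06, edgeR adjusted p = 0.659).

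The deposited annotation gives the Gene Ontology term for the basement membrane to 71 models, of which 11 are members and 4 are further models of members. Of the other 56 models 40 were tested, 0 were higher and 1 was lower in edgeR, and an unadjusted p under 0.05 was reached by 11 upward and 5 downward (7.93% and 8.91% of all models). The 1 is ACAN (aggrecan, the main proteoglycan of cartilage), named after its value was seen, which fell by 0.50 ± 0.06 on the log2 scale (edgeR adjusted p = 0.0185). The median log2 of these 40 was -0.02. They are not separate from the lists above. Of those with an unadjusted p under 0.05, ITGB4, ITGA6, TIMP1, ADAMTS1, VWA1, NTN1 and MATN2 (upward) and COL8A1 (downward) were counted there too. ENSSSCG00000026492 and TNC, both upward, match the same protein, tenascin. A further model matched to a tenascin-like protein, ENSSSCG00000025956, had log2 0.06 ± 0.07 (edgeR adjusted p = 0.697).

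Several markers of the cells that make or rest on basement membranes differed between the groups. Of the 10 endothelial markers 8 had a model (CDH5 and VWF were not analysed here), and their summed level was 76.9, 110 and 93.4 RPKM with DMSO and 129, 144 and 115 RPKM with GW0742, with the groups apart. CLDN5 held most of that sum, at 68.7 RPKM with DMSO and 94.0 RPKM with GW0742. In edgeR 0 of the 7 tested passed, where 0.184% of all tested models were higher and 0.0778% lower. At an unadjusted p under 0.05 there were 6 upward and 0 downward, against 7.93% and 8.91% of all tested models. DESeq2 called PECAM1 and KDR higher, where 1.46% of all models were. The defining endothelial genes PECAM1 and KDR were at 6.55 and 0.246 RPKM with DMSO and at 13.3 and 0.855 RPKM with GW0742, and PECAM1 overlapped between the groups on that scale. ERG, a transcription factor of endothelium and the next in level after CLDN5, was at 12.6 and 12.3 RPKM (log2 -0.06 ± 0.08). DMSO replicate 1 was the lowest and DMSO replicate 2 the highest of the DMSO libraries in the endothelial sum too.

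The pericyte and mural sum, over 6 of 7 markers, ran from 185.5 to 198.9 RPKM with DMSO and from 200 to 200.4 RPKM with GW0742. In CPM CSPG4 (log2 0.05 ± 0.06), PDGFRB (0.07 ± 0.06), NOTCH3 (-0.13 ± 0.07) and MCAM (0.26 ± 0.14) overlapped between the groups. ABCC9, with 8 to 25 reads in each library, was higher with the groups apart (log2 1.13 ± 0.30, edgeR adjusted p = 0.129). None of the 5 tested passed in edgeR or DESeq2. Chondrocyte markers, 8 of 8, summed to between 372 and 391.4 RPKM with DMSO and between 316.6 and 329.6 RPKM with GW0742, and ACAN was the 1 of 7 tested that passed in edgeR. DESeq2 called ACAN and COL11A1 lower (adjusted p = 3.73e-13 and 0.00683), where 1.65% of all models were. Skeletal and smooth muscle markers, 5 of 5, summed to between 2501 and 2641 RPKM with DMSO and between 1986 and 2255 RPKM with GW0742. ACTA2 (2072 RPKM with DMSO) held most of that sum. ACTA2 (log2 -0.29 ± 0.07), DES (-0.29 ± 0.09) and CNN1 (-0.28 ± 0.06) were lower with the groups apart, while MYH11 (0.09 ± 0.17) overlapped. None of the 4 tested passed in edgeR, and DESeq2 called ACTA2 and CNN1 lower (adjusted p = 0.00562 and 0.00114). Fibroblast markers, 5 of 6, summed to between 14130 and 14520 RPKM with DMSO and between 13260 and 14110 RPKM with GW0742. COL1A2 (7108 RPKM with DMSO) and VIM (6843 RPKM) held most of that sum. In CPM the fibroblast markers did not move together, and none passed in edgeR. DCN (log2 0.39 ± 0.13) and LUM (0.65 ± 0.16) were higher, and COL1A2 (-0.17 ± 0.07) and THY1 (-0.28 ± 0.06) lower, with the groups apart. VIM (-0.01 ± 0.06) overlapped. DESeq2 called LUM higher (adjusted p = 0.00335) and THY1 lower (adjusted p = 0.000519). Immune markers, 4 of 4, did not exceed 6.48 RPKM in any library. Epithelial markers, 3 of 5, did not exceed 1.34 RPKM in sum in any library. The part of these marker differences in the levels of collagen XVIII, nidogen-1 and the other members was not tested.

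**Figure D5:**
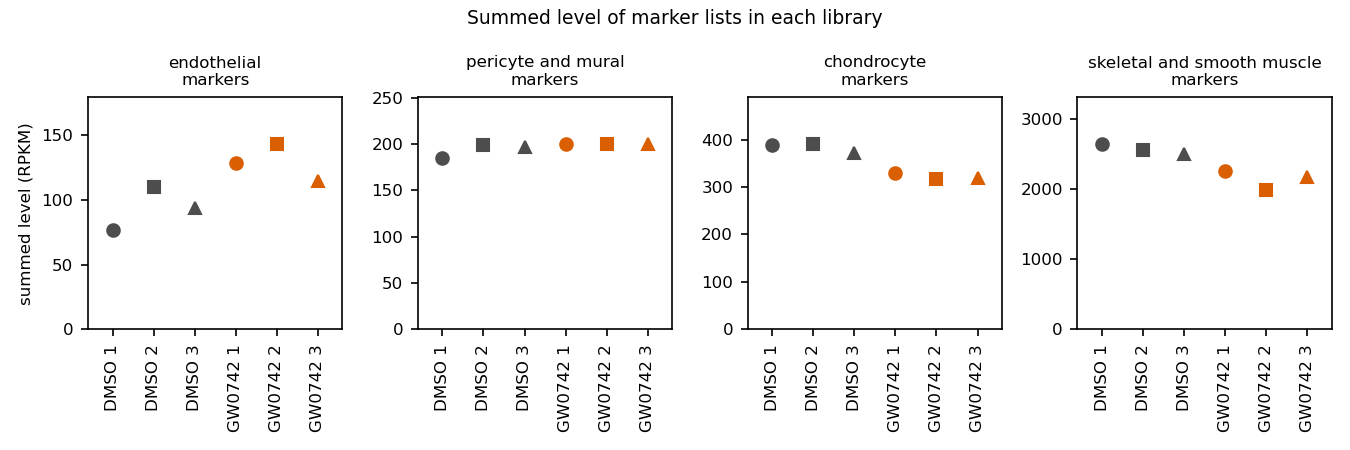
Summed RPKM of endothelial, pericyte and mural, chondrocyte, and muscle markers in each of the 6 libraries, on axes that start at 0. The endothelial sum is higher in every GW0742 library (114.8 to 143.5 RPKM) than in any DMSO library (76.92 to 109.8 RPKM), and the chondrocyte and muscle sums are lower.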

How the data were processed

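RNA of pig ear cartilage cells was compared between GW0742 and DMSO, with 3 libraries per group. Per the file headers, each library's deposited table holds the authors' estimated counts and RPKM values per gene model. The deposited series table repeats the authors' RPKM, and 0 values differed between them. The build was Sscrofa10.2 per the submitters' processing notes, while the aligner, the counter and the annotation version were not given in the sources used here. No step that keeps the strand is described, and reads of a gene and its antisense partner cannot be told apart.

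Estimated counts were rounded, filtered with filterByExpr (minimum count 10), scaled by TMM and tested over 14146 models with edgeR 4.0.16 (R 4.3.3) by its two-sided quasi-likelihood F-test, with Benjamini-Hochberg adjustment over all of them. SE is the log2 fold change over the root of F. Alternatives were DESeq2 1.42.0, median-of-ratios size factors, no filter, a replicate block, limma 3.58.1 on log2(RPKM + 1) and log2(RPKM + 0.1), a robust prior, summed models of 1 protein, and leaving out each library. Symbols come from a gene name table, and 2 further models of collagen XV were matched through their RefSeq gene. For the lists, 913 more models were named by the pig gene number of their first pathway entry, looked up in RefSeq. Where both routes gave a name, for 4004 models, the names were the same in 95%.

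Library depth was 13133980 to 16913745 reads, and 3 reads, the floor for counting error, come to between 0.178 and 0.230 CPM. Libraries of a group differed by more than sampling noise. Members and lists were chosen with earlier results of these data known. Values in every library are given for the members past the threshold, for those given by identifier and for the 6 most abundant, and for others where a library is described. In other lists the rule names up to 3 genes past the threshold, else the smallest p, and the most abundant gene. The values of 1 marker list are not reported here.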

Additional observations from a re-analysis of the deposited data

How the results depend on the processing

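Over the tested members and all alternatives, 373 log2 values kept their direction and their side of the threshold, 24 kept their direction but lost the call, and 8, none of them called, turned in sign. With 1 library left out, LAMB1 ranged from -0.04 (GW0742 replicate 2 removed) to 0.07, COL4A3 from -0.15 to 0.02 (DMSO replicate 2 removed), and HSPG2 from -0.04 (DMSO replicate 1 removed; -0.02 with GW0742 replicate 3 removed) to 0.08. SMOC1 ranged from -0.12 to 0.04 (GW0742 replicate 2 removed) and SMOC2 from -0.17 (GW0742 replicate 1 removed) to 0.31. FRAS1 came to -0.02 and -0.01 in limma on log2(RPKM + 1) and log2(RPKM + 0.1). The 24 belong to ENSSSCG00000030160, ENSSSCG00000028846 and ENSSSCG00000021913. The number of members higher was 3, with 26 models higher and 11 lower over all. DESeq2 gave 3 members, and 207 and 234 over all. Without a filter 1 member was higher, and 13 and 3 over all of 19499 models. Limma gave 1 member on log2(RPKM + 1), with 19 and 3 over all, and 1 on log2(RPKM + 0.1), with 17 and 4. In all 3 of these the member was ENSSSCG00000030160. With models of 1 protein summed, 1 protein passed, collagen XVIII. With the robust prior 3 members passed, and 27 and 15 models over all. Leaving out 1 library gave 0 to 2 members, 6 to 54 models higher and 0 to 47 lower over all, with fewer samples in each fit. Removing replicate 1 or 3 of DMSO, or replicate 1 or 2 of GW0742, left 0 members. Removing replicate 2 of DMSO left 1, and removing replicate 3 of GW0742 left 2. Where 0 models were lower over all, an unadjusted p under 0.05 in edgeR was reached downward by 842 (DMSO replicate 1 removed), 945 (DMSO replicate 3 removed) and 1032 (GW0742 replicate 1 removed). No pairing by replicate number was seen: deviations of same-numbered libraries from their group means correlated by 0, -0.04 and -0.10 across models. The labels do not say whether the samples were paired, and these few libraries cannot settle it. With the replicate block 0 members passed (adjusted p 0.141 to 0.142 for the 3), and 10 and 0 models over all, with 1102 lower at an unadjusted p under 0.05. The cause of these differences was not tested. Depth limits LAMA1, LAMA2, LAMB3, LAMC3 and COL4A5, which have few reads.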
